A study of Mus musculus with 4 samples.

Results

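The Maf, Batf and Irf4 genes encode transcription factors that act in pairs or complexes on DNA, and this is an account of the 6 of them chosen by name, Maf, Mafk, Mafg, Batf, Batf3 and Irf4, in splenic follicular helper CD4 T (TFH) cells with and without Rictor. They are 6 of the 18193 genes that the arrays measured through a probe set named for 1 gene alone, and 13 of the 45037 probe sets read them. Rictor is the scaffold that defines mTOR complex 2 (mTORC2), and the study asked what the loss of mTORC2 changes in the genes of TFH cells during viral infection. TFH cells were sorted from the spleen at day 8 after infection of adult mice of both sexes with LCMV Armstrong, a strain that causes an acute infection. The Rictor-null group, 2 arrays, came from mice in which Cd4-Cre deletes floxed Rictor, so that deletion starts in the thymus and reaches CD4 and CD8 T cells. The WT group, 2 arrays, came from Rictor fl/fl littermates, so that the floxed alleles are common to both groups. Each array was hybridised with RNA from a separate pool of mice, so that p-values measure the spread between pools. The brightest of 5 Rictor probe sets was at 267 and 279 on the Rictor-null arrays, against 334 and 303 on the WT arrays, and the 5 had log2 fold changes from -0.21 to 0.11. Whether they cover the deleted exons is not stated, so that they do not check the deletion. In a separate measurement, the study reports that Rictor mRNA could not be detected in TFH cells sorted from Rictor-null mice.

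c-Maf, encoded by Maf, is a large basic leucine zipper factor that drives IL-21 and IL-4 in helper T cells and is one of the factors that TFH cells are recognised by. MafK and MafG are small Maf proteins. They have the same DNA-binding zipper but no transactivation domain, and they pair with the CNC family (NRF2, NF-E2, Bach1, Bach2) to activate or repress genes. BATF and BATF3 also lack a transactivation domain, dimerise with Jun proteins and recruit IRF4 to composite sites, and in T cells BATF and IRF4 are induced by T cell receptor signals and are needed for Bcl6, Maf and IL-21 expression.

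Among these genes the arrays split by family member. Maf was lower in Rictor-null than in WT TFH cells by a log2 fold change of -0.84, and Mafg was lower by -0.59. Batf was slightly higher, at 0.15, and Mafk, Batf3 and Irf4 did not pass the test. Log2 fold changes are differences of mean log2(intensity + 16), which shrinks the change of dim genes, and a gene passed where limma gave it an adjusted p under 0.05 over all 18193 genes. Of the 6, 2 were lower and 1 was higher, where 7.19% of all genes were lower and 12.5% were higher. In arrays of sorted cells, fewer cells with a transcript and less transcript per cell cannot be told apart.

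**Figure D1:**
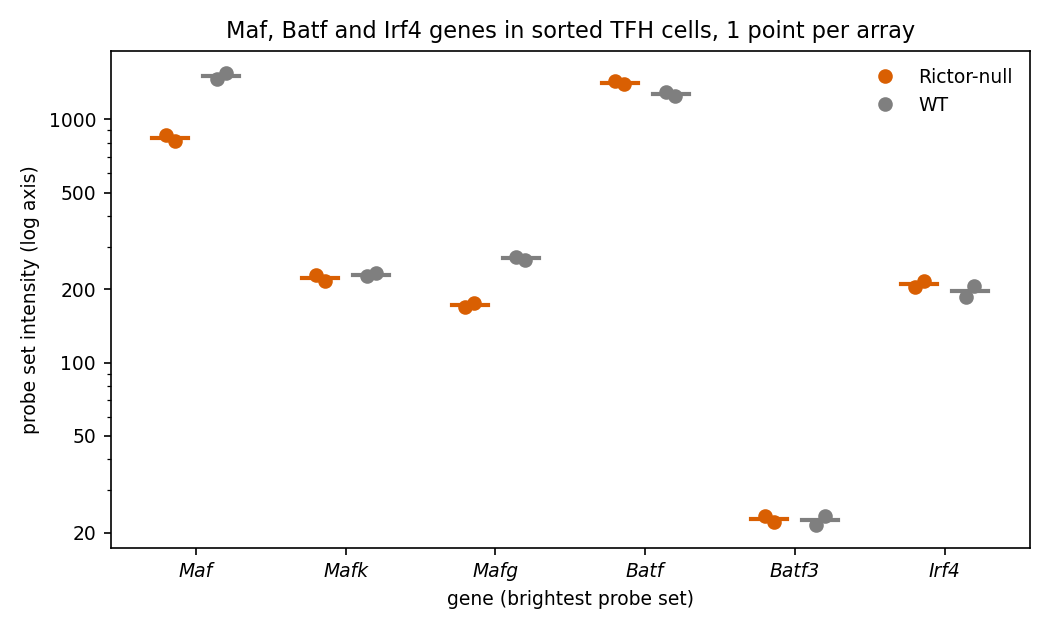
Intensity (y axis, log scale) of the brightest probe set of each of the 6 genes (x axis), with a point per array and a bar at the mean of the 2 arrays, Rictor-null in orange on the left and WT in grey on the right of each gene. The orange points of Maf and Mafg lie well below the grey ones, those of Batf lie just above, and those of Mafk, Batf3 and Irf4 overlap with WT.

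Maf had the largest change of the 6. In its brightest probe set, 1456060_at, the intensity was 864 and 814 on the Rictor-null arrays, against 1472 and 1546 on the WT arrays. Both Rictor-null arrays lay below both WT arrays, as the groups did not overlap for 55.5% of all genes. The mean was 839 ± 35.3 in Rictor-null and 1509 ± 52.3 in WT TFH cells (SD, n = 2 each), 44.4% lower on the linear scale. The log2 fold change was -0.84 (standard error 0.05, 95% interval -0.94 to -0.73, adjusted p = 4.7e-07 from limma). The distance between the groups was therefore far larger than the gap between arrays of a group, 0.084 in Rictor-null and 0.07 in WT on the log2 scale. A fall as large as this was rare, since 0.0989% of all genes had a lower log2 fold change.

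Maf was read by 6 probe sets, and 5 of them were lower in Rictor-null TFH cells when all probe sets were tested together, a test in which 4.63% of all probe sets were lower and 6.38% higher. None of the 13 probe sets of the 6 genes was higher in that test. The probe set 1437473_at was at 604 and 581 on the Rictor-null arrays, against 1145 and 1165 on the WT arrays. The probe set 1435828_at was at 236 and 220 in Rictor-null, against 400 and 422 in WT. Over the 5 the intensity was 41.4% to 48.7% lower, with log2 fold changes from -0.94 to -0.71 and adjusted p-values from 7.05e-06 to 0.000374 from limma. One of the 5, 1447849_s_at, carries the suffix that the maker gives to probe sets that can match several transcripts, and it was at 479 and 423 in Rictor-null, against 769 and 771 in WT. The fifth, 1444073_at, was dimmer, at 84.7 and 77.1 in Rictor-null, against 144 and 141 in WT.

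The exception was 1447945_at, the dimmest Maf probe set, where the groups overlapped. It was at 40.2 and 26.8 on the Rictor-null arrays, against 33.6 and 27.0 on the WT arrays, not far above the array medians, which ran from 19.98 to 20.4. Its log2 fold change was 0.09 (standard error 0.13, 95% interval -0.20 to 0.37, adjusted p = 0.768 from limma). With all 6 probe sets averaged, Maf was at -0.66 on the log2 scale and still passed. The sources used here do not say which part of the Maf transcript each probe set reads.

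**Figure D2:**
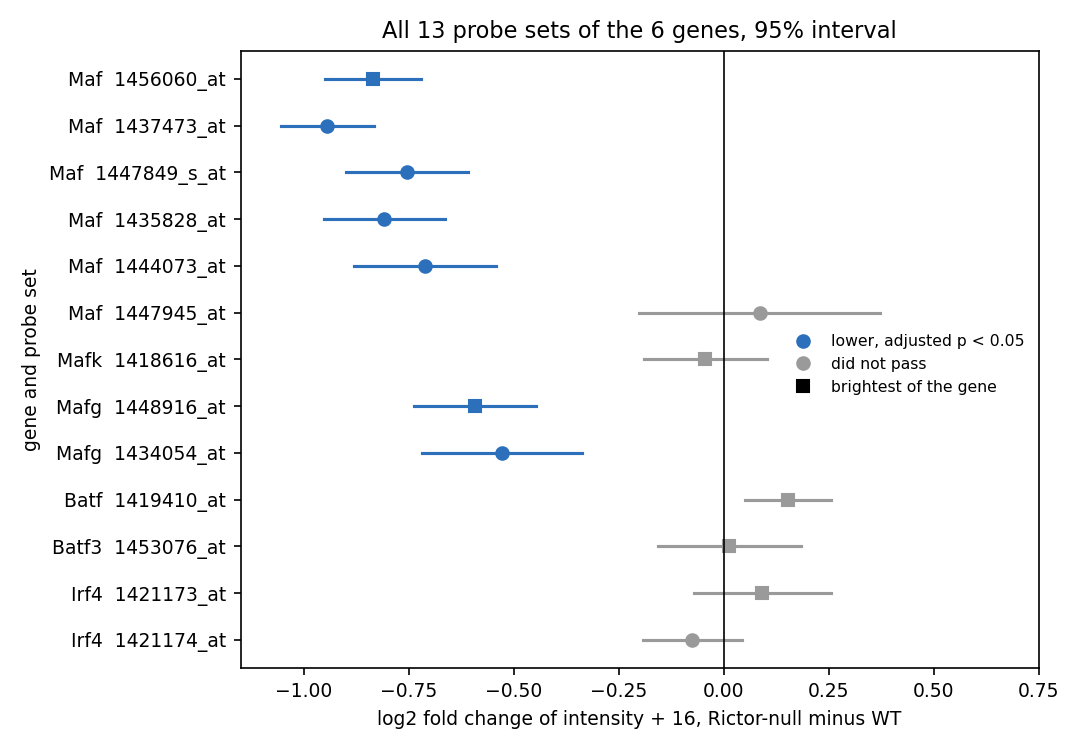
Log2 fold change of intensity + 16, Rictor-null minus WT (x axis), for the 13 probe sets of the 6 genes (rows), with 95% intervals from the fit on all probe sets. Blue marks passed as lower, grey marks did not pass, and squares are the brightest probe set of each gene. The 5 blue Maf probe sets lie between -0.94 and -0.71, both Mafg probe sets are blue, and the interval of Batf lies above 0 although it did not pass among all probe sets.

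The small Maf genes did not move alike. Mafg, whose product binds DNA as a heterodimer with CNC factors, was at 168 and 176 on the Rictor-null arrays, against 271 and 265 on the WT arrays, in probe set 1448916_at. The arrays of the groups did not overlap, as for 55.5% of all genes. The mean was 172 ± 5.58 in Rictor-null and 268 ± 4.65 in WT TFH cells (SD, n = 2 each), 35.7% lower. The log2 fold change was -0.59 (standard error 0.06, 95% interval -0.73 to -0.46, adjusted p = 3.56e-05 from limma), and 0.352% of all genes lay lower. The other Mafg probe set, 1434054_at, was at 54.2 and 63.1 in Rictor-null, against 93.3 and 89.5 in WT. It gave nearly the same relative change, 35.9% lower, with a log2 fold change of -0.53 (adjusted p = 0.00324 from limma over all probe sets).

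Mafk, the other small Maf measured here as a member, was read by 1 probe set, 1418616_at. It was at 229 and 216 on the Rictor-null arrays, against 226 and 234 on the WT arrays, so that the groups overlapped. Its log2 fold change was -0.04 (95% interval -0.18 to 0.09, adjusted p = 0.727 from limma). This interval contains 0 and does not reach the interval of Mafg. The change of Mafg was 0.55 further down than that of Mafk on the log2 scale, and an exact permutation test of that difference gave p = 0.333 (two-sided), the smallest p that 2 arrays against 2 allow.

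The 250 bases upstream of the transcription start are shown for Mafg and Mafk because these closely related genes differed in the readout. RefSeq windows (GRCm38.p6) were held for 5 of the 6 genes, and Maf was not among them. Capitals mark matches to TGCTGA, the arm that occurs on each side of the palindromic Maf recognition element, on either strand, and the sequences are written 5′ to 3′ along the strand of the gene.
Mafg, chr11:120633548-120633797, minus strand: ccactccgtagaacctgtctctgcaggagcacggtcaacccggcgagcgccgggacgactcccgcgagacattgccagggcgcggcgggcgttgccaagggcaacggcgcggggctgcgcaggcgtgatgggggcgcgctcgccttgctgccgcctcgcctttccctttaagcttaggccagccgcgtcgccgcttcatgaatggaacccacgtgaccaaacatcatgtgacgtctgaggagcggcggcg
Mafk, chr5:139791286-139791535, plus strand: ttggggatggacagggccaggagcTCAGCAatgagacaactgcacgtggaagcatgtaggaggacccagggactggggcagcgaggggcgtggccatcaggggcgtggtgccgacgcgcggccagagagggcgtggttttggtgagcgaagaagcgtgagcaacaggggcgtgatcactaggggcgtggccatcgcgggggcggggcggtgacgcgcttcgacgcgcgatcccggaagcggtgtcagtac

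The windows were alike in base composition, at 68.0% G and C for Mafg and 67.2% for Mafk. TGCTGA was found once, on the minus strand of the Mafk window, 226 to 221 bases before the start, and 16.1% of all 32851 windows hold it. None of the 5 windows held the AP-1 site TGANTCA (6.75% of all windows) or the cyclic AMP response element TGACGTCA (1.55%). The motifs were searched on both strands, a match is no evidence of binding, and the absence of these letters covers only this window.

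Batf, the partner of Jun proteins and IRF4, was bright and differed little. It was at 1431 and 1398 on the Rictor-null arrays, against 1298 and 1242 on the WT arrays, in its only probe set, 1419410_at. Both Rictor-null arrays were above both WT arrays, and the groups likewise did not overlap for 55.5% of all genes. The mean was 1414 ± 23.5 in Rictor-null and 1270.0 ± 40.3 in WT TFH cells (SD, n = 2 each). The log2 fold change was 0.15 (standard error 0.05, 95% interval 0.06 to 0.25, adjusted p = 0.0305 from limma), and 82.9% of all genes lay lower. This call depended on the processing: the adjusted p from limma was 0.0625 with all probe sets tested together, 0.0766 after quantile normalization, and 0.113 without Rictor-null replicate 1. It was 0.1 without WT replicate 1 and 0.246 without WT replicate 2. The direction was the same in each of the 13 alternatives tried.

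Batf3, best known as the factor that cross-presenting dendritic cells require, was close to the array median. It was at 23.4 and 22.2 on the Rictor-null arrays, against 21.4 and 23.4 on the WT arrays, and the groups overlapped. The log2 fold change was 0.014 (95% interval -0.14 to 0.17, adjusted p = 0.935 from limma). At so low an intensity, on a scale that adds 16, a change in Batf3 would be hard to detect.

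Irf4, whose product binds next to BATF and whose level follows the strength of T cell receptor signals, did not pass. Its brightest probe set, 1421173_at, was at 204 and 216 on the Rictor-null arrays, against 186 and 207 on the WT arrays. The lower Rictor-null array lay below the higher WT array, and the log2 fold change was 0.09 (standard error 0.07, 95% interval -0.06 to 0.24, adjusted p = 0.436 from limma). The other Irf4 probe set, 1421174_at, was dimmer than the array median throughout, at 8.96 and 10.4 in Rictor-null and 10.2 and 11.9 in WT. Its log2 fold change was -0.07, also without passing (adjusted p = 0.464 from limma over all probe sets). The interval of the brightest Irf4 probe set does not include a fall of the size seen in Maf or Mafg. The log2 fold change of Maf lay 0.99 below that of Batf and 0.93 below that of Irf4, and exact permutation tests of both differences gave p = 0.333 (two-sided), again the smallest possible.

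The genes with values most like these were found by the Euclidean distance between log2 values over the 4 arrays, each gene centred on its own mean, among 10713 other genes brighter than the median probe set. For Maf they were St6gal1, which encodes a sialyltransferase, Sema7a, which encodes a membrane-anchored semaphorin, and Cd22, which encodes a sialic acid-binding receptor, at distances of 0.053, 0.0608 and 0.078. Their log2 fold changes were -0.84, -0.77 and -0.82. For Mafg they were Iffo2, the RNA-decay factor gene Zfp36l1 and the T cell identity factor gene Bcl11b, with log2 fold changes of -0.58, -0.62 and -0.57. For Batf they were Dynll1, Uspl1 and Orai2, at 0.16, 0.15 and 0.15, of which only Dynll1 passed. Mafk, Batf3 and Irf4 had values that followed no group, and their nearest genes (Rbl1, Fxyd4 and Atxn7l1os2) were likewise without a call. Over 4 arrays in 2 groups such a distance mostly says that genes changed by a like amount.

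Relatives of the Maf genes passed the test at a share not far from that of all genes. Of 10 Maf and CNC genes written down, 8 were measured, and 1 was higher, none was lower and 7 did not pass. That is 12.5% called, beside 19.7% of all genes in either direction, of which 12.5% were higher and 7.19% lower. The median log2 fold change of the 8 was -0.018, beside 0.0068 for all genes. Nfe2, which encodes the p45 subunit that pairs with small Maf proteins in megakaryocytes and red cell precursors, was at 68.1 and 54.0 on the Rictor-null arrays, against 40.8 and 45.9 on the WT arrays. It rose by 0.37 on the log2 scale (adjusted p = 0.0205 from limma), and the count of higher genes was 0 without Rictor-null replicate 1, without WT replicate 1 and without WT replicate 2. Nfe2l2, the gene of NRF2, was at 255 and 251 in Rictor-null, against 296 and 275 in WT (log2 fold change -0.16, adjusted p = 0.0828 from limma). Bach2, a repressor that holds back effector differentiation, was at -0.021, Bach1 at 0.025 and the third small Maf gene, Maff, at 0.06, all without passing, and Maff was dim, at 25.9 to 31.1 over the 4 arrays.

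The AP-1 family, which holds the dimer partners of BATF, had several genes that fell. Of 9 measured, 5 were lower in Rictor-null TFH cells and none was higher, and the median of the 9 was -0.33 on the log2 scale, where 7.19% of all genes were lower and 12.5% higher. Fos was at 1194 and 1227 on the Rictor-null arrays, against 1951 and 1903 on the WT arrays, a log2 change of -0.66 (SE 0.04 and adjusted p = 1.11e-06, limma). Junb, whose product is a partner of BATF in T cells, was at 348 and 369 in Rictor-null, against 500.5 and 515 in WT, which is -0.48 on the log2 scale. Fosb, Jund and Jun were at -0.43, -0.34 and -0.33. The arrays of the groups did not overlap in any of these 5 genes, as for 55.5% of all genes. The count of lower genes was 5 after median centring and after quantile normalization. It was 4 with averaged probe sets and 0 under the adjusted test of the study's methods. Batf2, Atf3, Fosl1 and Fosl2, at 7.65 to 14.9 on all arrays, lay below the array median and did not pass.

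Among genes of the IRF family and of IRF4's partners, 4 of 11 measured were lower and none was higher, and the median of the 11 was -0.08 on the log2 scale, beside 7.19% lower and 12.5% higher among all genes. Irf8, which encodes the IRF4 relative that B cells and dendritic cells depend on, was at 87.8 and 78.6 on the Rictor-null arrays, against 124 and 113 on the WT arrays (log2 fold change -0.44, adjusted p = 0.00216 from limma). Irf7, Irf2 and Irf9, which act in the interferon response, were at -0.30, -0.29 and -0.27. Def6, encoding a protein that binds IRF4 and limits its activity, was at 663 and 702 in Rictor-null, against 756 and 643 in WT, and the log2 change of its relative Swap70 was 0.16, and neither passed. Irf1 was at -0.08 and did not pass. The 4 lower genes of this list depended on the WT arrays, since the count was 0 without WT replicate 1 and 1 without WT replicate 2.

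**Figure D3:**
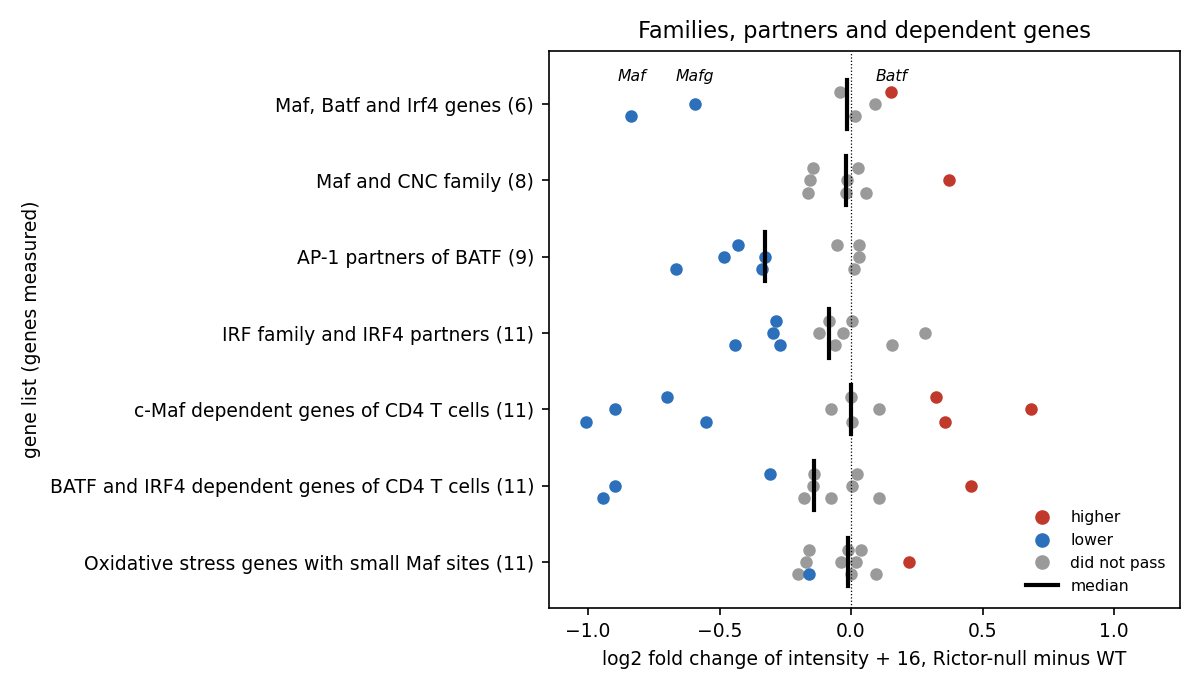
Log2 fold change of intensity + 16, Rictor-null minus WT (x axis), of the 6 genes and of the measured genes of 6 lists (rows, number measured in brackets), with a point per gene, red for higher, blue for lower and grey for genes that did not pass, and a black bar at the median. The AP-1 list has the lowest median, -0.33, while the genes that depend on c-Maf lie on both sides of 0.

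Genes that depend on c-Maf in CD4 T cells moved in both directions. Of 11 measured, 4 were lower and 3 were higher, and the median of the 11 was 0.0011 on the log2 scale, against 7.19% of all genes lower and 12.5% higher. The lower genes were Ccr6, Il21, Cxcr5 and Pdcd1. Ccr6, a chemokine receptor gene, was at 76.5 and 74.7 on the Rictor-null arrays, against 177 and 159 on the WT arrays, a log2 change of -1.01 (adjusted p = 3.67e-06, limma). Il21, the helper cytokine gene that c-Maf induces, was at -0.90, Cxcr5, the follicle homing receptor gene, at -0.70 and Pdcd1, the gene of PD-1, at -0.55.

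The higher genes of this list encode receptors of activated and effector T cells. Havcr2, the gene of the inhibitory receptor TIM-3, was at 26.2 and 23.5 on the Rictor-null arrays, against 9.46 and 9.35 on the WT arrays, where it lay below the array median. It rose by 0.69 on the log2 scale (adjusted p = 1.07e-05 from limma). Il2ra, the gene of the IL-2 receptor alpha chain, rose by 0.36 from a like low intensity, at 21.2 and 17.4 in Rictor-null, against 12.03 and 11.05 in WT. Lag3, another inhibitory receptor gene, was at 97.5 and 89.0 in Rictor-null, against 67.8 and 74.7 in WT (log2 fold change 0.32, adjusted p = 0.0158 from limma). Without WT replicate 2 the list had 1 higher gene. Icos, the co-stimulatory receptor gene, was at 4219 and 4477 in Rictor-null, against 4423 and 4251 in WT, and Il4 and Il10 were at log2 fold changes of -0.08 and 0.11, all without passing, with Il10 below the array median. In a separate measurement by quantitative PCR, the study reports less Il4 RNA in Rictor-null TFH cells. It reports the same for Maf, Il21, Cxcr5 and Pdcd1.

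Of 11 measured genes that depend on BATF and IRF4, 3 were lower, 1 was higher and 7 did not pass, and the median of the 11 was -0.14 on the log2 scale, with 7.19% of all genes lower and 12.5% higher. Il21, Il10 and Icos stand in both this list and the last. Bcl6, the lineage-defining repressor gene of TFH cells, was at 208 and 231 on the Rictor-null arrays, against 467 and 408 on the WT arrays, which is -0.94 on the log2 scale. Prdm1, which encodes the opposing repressor Blimp-1, was at 68.5 and 64.2 in Rictor-null, against 43.2 and 44.8 in WT, and rose by 0.46 on the log2 scale (adjusted p = 0.00181 from limma). Rora fell by 0.31, and Ctla4, at 652 and 675 in Rictor-null, against 737 and 734 in WT, stayed short of the threshold (log2 fold change -0.15, adjusted p = 0.0537 from limma). The RNA of Bcl6 and Il21 was called lower, and that of Batf and Irf4 was not. Whether these values are linked was not tested.

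Oxidative stress genes, which small Maf proteins reach as partners of NRF2 and Bach1, passed about as often as other genes. Of 11 measured, 1 was higher and 1 lower, 18.2% beside 19.7% of all genes. Fth1, the ferritin heavy chain gene, was at 3127 and 3060 on the Rictor-null arrays, against 3518 and 3391 on the WT arrays, and fell by 0.16 on the log2 scale (adjusted p = 0.014 from limma). Gsr, the glutathione reductase gene, rose by 0.22 on the log2 scale (adjusted p = 0.0453, limma). With either WT array left out, both of these counts were 0. Hmox1, the haem oxygenase gene that Bach1 represses, was below the array median, at 14.7 to 17.7 over the 4 arrays.

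The sorted cells carried T cell and TFH transcripts on all arrays, and Cd3e, Cd4 and Cd28 were themselves lower in Rictor-null TFH cells, by log2 fold changes from -0.32 to -0.26, smaller than those of Maf and Mafg. The brightest T cell marker, Cd3d, was at 6517 and 6409 on the Rictor-null arrays, against 6410 and 6430 on the WT arrays, and did not pass. Since Batf3, Irf4 and Irf8 are also used by dendritic cells, B cells or plasma cells, markers of these cells were read too. All 3 measured B cell markers (Cd79a, Ms4a1 and Pax5) lay below the array median on every array, and Pax5 was higher in Rictor-null, at 16.9 and 16.6, against 13.3 and 11.1 in WT. The 5 plasma cell markers summed to 1325 to 1385 in Rictor-null and 1138 to 1209 in WT, with Jchain and Mzb1 higher, Xbp1 lower, and Sdc1 and Tnfrsf17 below the array median. The 4 dendritic cell markers summed to 202 to 203 in Rictor-null and 104 to 115 in WT. This came from Itgax, a gene that activated T cells also use (log2 fold change 1.28), while Zbtb46, Flt3 and Xcr1 did not pass. The 5 macrophage markers summed to 302 to 332 in Rictor-null and 237 to 257 in WT, with Lyz2 higher. Cd68, Csf1r, Adgre1 and Cd14 did not pass. The 3 CD8 and NK cell markers summed to 158 to 173 in Rictor-null and 119 to 126 in WT, with Cd8b1 higher and Ncr1 below the array median. Cd8a, at 23.7 and 25.2 in Rictor-null, against 24.7 and 24.0 in WT, did not pass, and neither did Ncr1. Foxp3, the regulatory T cell factor gene, lay below the array median, and Ikzf2, the gene of Helios, was lower in Rictor-null TFH cells. The part of such cells in the values of the 6 genes was not tested.

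**Figure D4:**
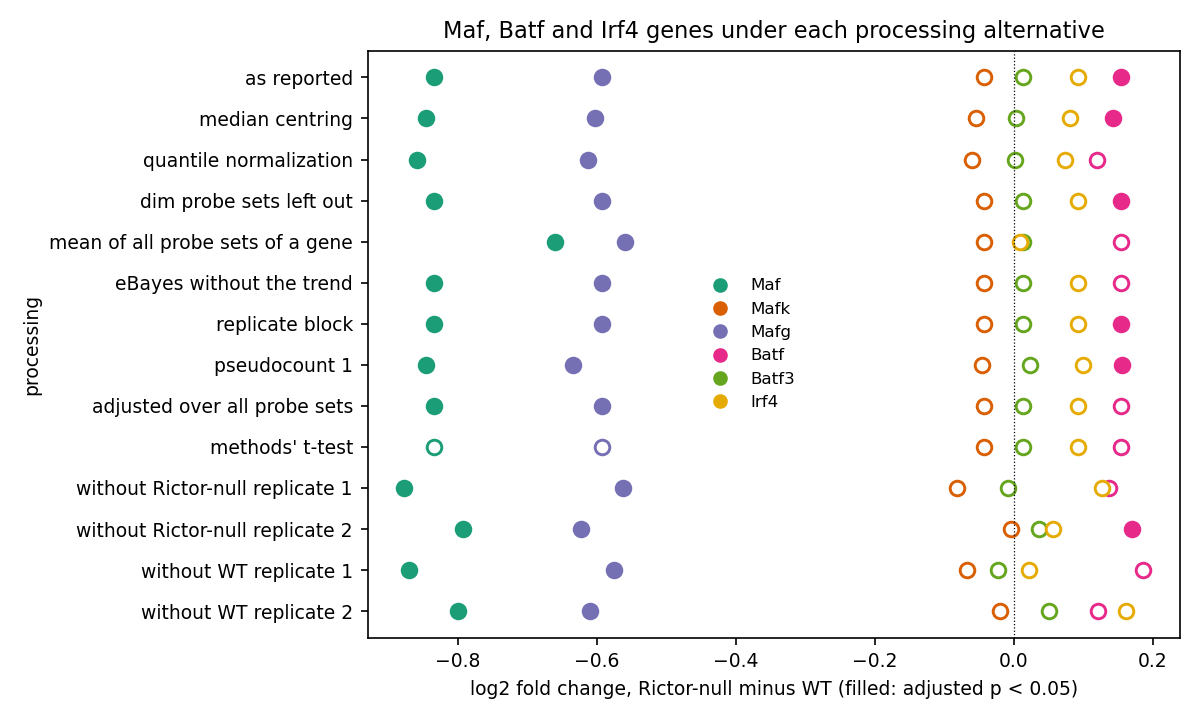
Log2 fold change, Rictor-null minus WT (x axis), of the 6 genes under the reported processing and 13 alternatives (rows), filled where the adjusted p was under 0.05. Maf and Mafg stay far to the left throughout and are open only under the methods' t-test after adjustment. Batf is open in 8 of the 13 alternatives.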

How the data were processed

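Biotin-labelled RNA of TFH cells was hybridised to 1-colour Affymetrix mouse arrays, 2 Rictor-null and 2 WT. The deposited values are probe set intensities on a linear scale. MAS5 and RMA are named in the notes of the authors with no role for either. The medians of the arrays lie close together (19.98 to 20.4), which does not by itself show whether arrays were scaled before deposit. No depth applies to arrays, and their number limits the precision. The platform annotation pairs 34945 of 45037 probe sets with 1 symbol, 932 with several and 9160 with none, and matching 34741 Entrez numbers to RefSeq (GRCm38.p6) changed 0 symbols. A gene was represented by its probe set with the highest mean over the 4 arrays. Intensities became log2(intensity + 16). The test was limma's (version 3.58.1, R 4.3.3; lmFit, eBayes with a trend), with Benjamini-Hochberg adjustment over 18193 genes and a threshold of 0.05. Genes named are the 6, every probe set of them, up to 6 called genes per list, a fixed set of partners and dependent genes, and the 3 genes nearest to each (of Mafk, Batf3 and Irf4, only the nearest 1 is printed). The 6 genes and the lists were chosen with earlier results of these data known. Alternatives were normalization, a filter on dim probe sets, averaged probe sets, no trend, a replicate block, a pseudocount of 1, all probe sets, the methods' t-test and each array left out.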

Additional observations from a re-analysis of the deposited data

How the results depend on the processing

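Maf and Mafg kept their direction in all 13 alternatives and their call in 12 of them, with log2 fold changes from -0.88 to -0.66 and from -0.63 to -0.56. Both were lost under the methods' t-test after Benjamini-Hochberg adjustment (log2 fold changes of -0.84 and -0.59, adjusted p = 0.0736 and 0.0725). The study's methods name the t-test without such an adjustment. After that adjustment 3 genes were higher and 3 lower of 18193. The unadjusted p of this t-test was taken in the tail of each gene's own direction, which makes it smaller than a two-sided p. It was 0.00214 for Maf and 0.00169 for Mafg, and it was under the threshold for 5374 genes. Batf lost its call under 8 of 13 alternatives, at log2 fold changes of 0.12 with quantile normalization, 0.15 with averaged probe sets, without the trend, with adjustment over all probe sets and in the methods' t-test, and 0.12 to 0.19 with an array left out (lost for 3 of the 4 arrays), and the cause was not tested. Batf3, never called, turned its sign with an array left out (-0.023 to 0.051). Mafk and Irf4 passed under no alternative. The count of all genes lower was 1308 of 18193 (7.19%), against 842 with averaged probe sets. Counted in probe sets, 2086 of 45037 were lower (4.63%). With an array left out, 930 to 2000 genes were higher and 457 to 1048 lower, and the lowest counts came without a WT array, where 1 array stands for WT and is assumed to vary like the other group. With the replicate block, 2366 genes were higher and 1382 lower, and no call on the 6 genes changed (Batf 0.15). Arrays with the same replicate number did not deviate together over all genes (r = -0.033). This single correlation cannot show whether they share a sort or a batch, which the labels do not state. Of 156 list counts under alternatives, 30 moved by more than 1.5 times. Intensities near the array median limit what can be read for Batf3 and the dimmest probe sets of Maf and Irf4.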
